A study of Drosophila melanogaster with 6 samples.

Results

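The Dpr, DIP, Beat and Side genes of *Drosophila* encode cell surface proteins of the immunoglobulin superfamily, and they were followed here in fly heads and in the photoreceptor nuclei isolated from them. Members were chosen by FlyBase symbol (dpr followed by a number, DIP-, beat-, and side or side-), and the rule uses no measured value. The rule found 54 genes among the 17558 genes of the count table, namely 21 Dpr, 11 DIP, 14 Beat and 8 Side genes. They are spread over chromosome arms 2L (16 genes), 2R (7), 3L (4) and 3R (21), chromosome X (5) and chromosome 4 (1).

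The study asked which transcripts are enriched when nuclei of the outer photoreceptors are purified from whole heads. In 3 replicates labelled as paired, RNA was taken from the head homogenate (pre-isolation, labelled total RNA) and from nuclei captured with GFP antibody on beads (post-isolation, labelled nuclear RNA). All 6 samples were pools of male flies aged 10 days, kept at 25 °C on a 12:12 light cycle, and all carried the mutation *w*, the reporter *P{w[+mC]=[UAS-GFP-Msp300KASH}attP2*, the driver *P{ry[+t7.2]=rh1-GAL4}3* and *ry[506]*. In this genotype *Rh1-Gal4*, active in the R1 to R6 photoreceptors and, by the study's account, in antennal sensory neurons, drives a GFP fused to the KASH domain of Msp300 that tags the outer nuclear membrane. The pre-isolation sample holds every cell type of the head, photoreceptors included, so each comparison sets tagged nuclei against the tissue that contains them.

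Dpr proteins are named after the founding gene *dpr1*, whose loss gives a defective proboscis extension response to salt. DIP proteins, the Dpr-interacting proteins, bind them between cells in many selective pairs, and both families are known in the optic lobe for being expressed in different combinations by different neuron types and for matching photoreceptors and lamina neurons with their synaptic targets. Beat proteins (beaten path) and Side proteins (sidestep) form a second set of partners, first known from motor axons, which carry Beat-Ia and follow Side on the surfaces along their route.

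Gene counts summed to 9999540 to 11232033 per pre-isolation sample and 11693481 to 14522962 per post-isolation sample. Levels are CPM, counts scaled to the library's total with TMM factors, which set samples to a common level through the bulk of genes. They are given as mean ± SD with n = 3. In the list of photoreceptor markers 17 of 17 genes were higher post-isolation by edgeR's test against no change at a false discovery rate (FDR) below 0.05. By the study's 2-fold criterion, given below, 15 of 17 were post-enriched. *ninaE* (log2 fold change 0.86) and *Arr2* (1.00) were not. The median log2 fold change of the 17 genes was 2.05, and their summed level went from between 56281 and 58320 CPM to between 137390 and 198610 CPM. The list includes *Rh3*, *Rh4*, *Rh5* and *Rh6*, rhodopsin genes of R7 and R8 cells, which the driver is not meant to label. The study ascribes the enrichment of such genes to driver activity in the antennae, which was not tested here. The summed level of 9 transmitter genes of other neurons (*ChAT*, *Gad1*, *VGlut* and others) went from between 1540 and 1622 CPM to between 777 and 1295 CPM, and that of 7 glial genes from between 1817 and 1973 CPM to between 804 and 1149 CPM. Of the 9 neuron markers 6 were lower at an FDR below 0.05, as were 8 of 9 lamina and medulla neuron markers and 6 of 7 glial markers, and none of these was at 0 in a post-isolation sample. Fat body and muscle markers were lower for 3 of 4 genes each, cytosolic ribosomal protein genes for 75 of 75 (median -1.41) and mitochondrial-encoded genes for 16 of 18 (median -2.65).

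Post-isolation replicate 3 stood apart from the other post-isolation samples. It held the lowest photoreceptor marker sum (137390 CPM, against 172540 and 198610 CPM) and the highest sums for markers of other neurons (1295 CPM, against 777 and 817 CPM) and glia (1149 CPM, against 804 and 860 CPM). It also gave the highest post-isolation value for 43 of the 48 members whose fold change was below 0 (89.6%), whereas among all genes below 0 it did so for 55.3%. Counts of all members called by either test are therefore given with and without it. The counts by family, of markers and of samples that do not overlap are given with it only.

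The recognition genes as a group were lower in the isolated nuclei, and few of them stood out from this. Summed over the 54 members, the level was 2785, 2925 and 3000 CPM in the pre-isolation samples and 1726, 1668 and 2268 CPM in the post-isolation samples, so that the groups did not overlap and the post-isolation mean was 65.0% of the pre-isolation mean. Of 53 members tested, 43 were lower post-isolation and 3 were higher (*DIP-iota*, *dpr7* and *side-VII*) by edgeR's quasi-likelihood F test against no change with Benjamini-Hochberg adjustment at an FDR below 0.05. *DIP-iota* entered the test only through its post-isolation samples, and a lower level there could not have been called. The 43 lower genes are 81.1% of the members, where 26.1% of the 10378 genes tested were lower and 24.4% higher. Without post-isolation replicate 3 the counts were 44 lower and 4 higher (*dpr8* besides the 3), where 27.7% of all genes were lower. The median log2 fold change of the members was -0.94, against -0.07 for all genes tested, and the interquartile range was -1.14 to -0.70 (all genes -0.72 to 0.56). In bulk samples such as these, fewer cells of a type and less RNA per cell cannot be told apart, nor can a change of cell type from the change of whole-cell to nuclear RNA. The markers of other neurons (median -0.81) and of glia (-0.95) were lower beside the members, and their part in the members' values was not tested.

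The study's own criterion, a change of more than 2-fold by glmTreat at an FDR below 0.05, called none of the 53 members in either direction, while it called 7.29% of all genes post-enriched (757 genes) and 4.89% post-reduced (508 genes). These shares are over the 10378 genes tested here, more than the 5262 genes of the authors' filtered count table. That table held 42 of the tested members, and the criterion applied to it called none of them. At an unadjusted glmTreat p below 0.05, 6 members were lower and 1 was higher. The share of all genes at that unadjusted cut-off was not taken, so these counts allow no comparison with all genes. DESeq2 with the same 2-fold threshold also called none. The adjusted p nearest to the threshold was 0.0674 for *DIP-iota* above and 0.109 for *dpr3* below, both by glmTreat with Benjamini-Hochberg adjustment. The post-isolation values of 43 members lay below every pre-isolation value and those of 4 members above, where 30.1% and 28% of all genes did so, and 6 members overlapped.

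The absence of post-reduced calls past 2-fold did not hold without post-isolation replicate 3 or with scaling by library size alone. Without post-isolation replicate 3, glmTreat called 10 members post-reduced (*dpr3*, *dpr12*, *dpr13*, *dpr15*, *dpr18*, *beat-Ic*, *beat-IIa*, *beat-IIIb*, *beat-VI* and *beat-VII*), or 18.9% of the members against 7.16% of all genes, and *DIP-iota* was called post-enriched. In that fit the members had a median of -1.14. Without pre-isolation replicate 3, *DIP-iota* was likewise called post-enriched (log2 fold change 3.06), on 3 and 7 pre-isolation counts. It was the only member called in that fit, which it entered through its post-isolation samples alone. With library size alone in place of TMM, 17 members were called post-reduced, or 32.1% of the members against 12.1% of all genes. The median of all genes itself moved to -0.51. Relative to that median the members stood at -0.86, and at -0.88 in the TMM fit. A change of scaling moves all genes by nearly the same amount, so this difference is kept by construction.

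**Figure D1:**
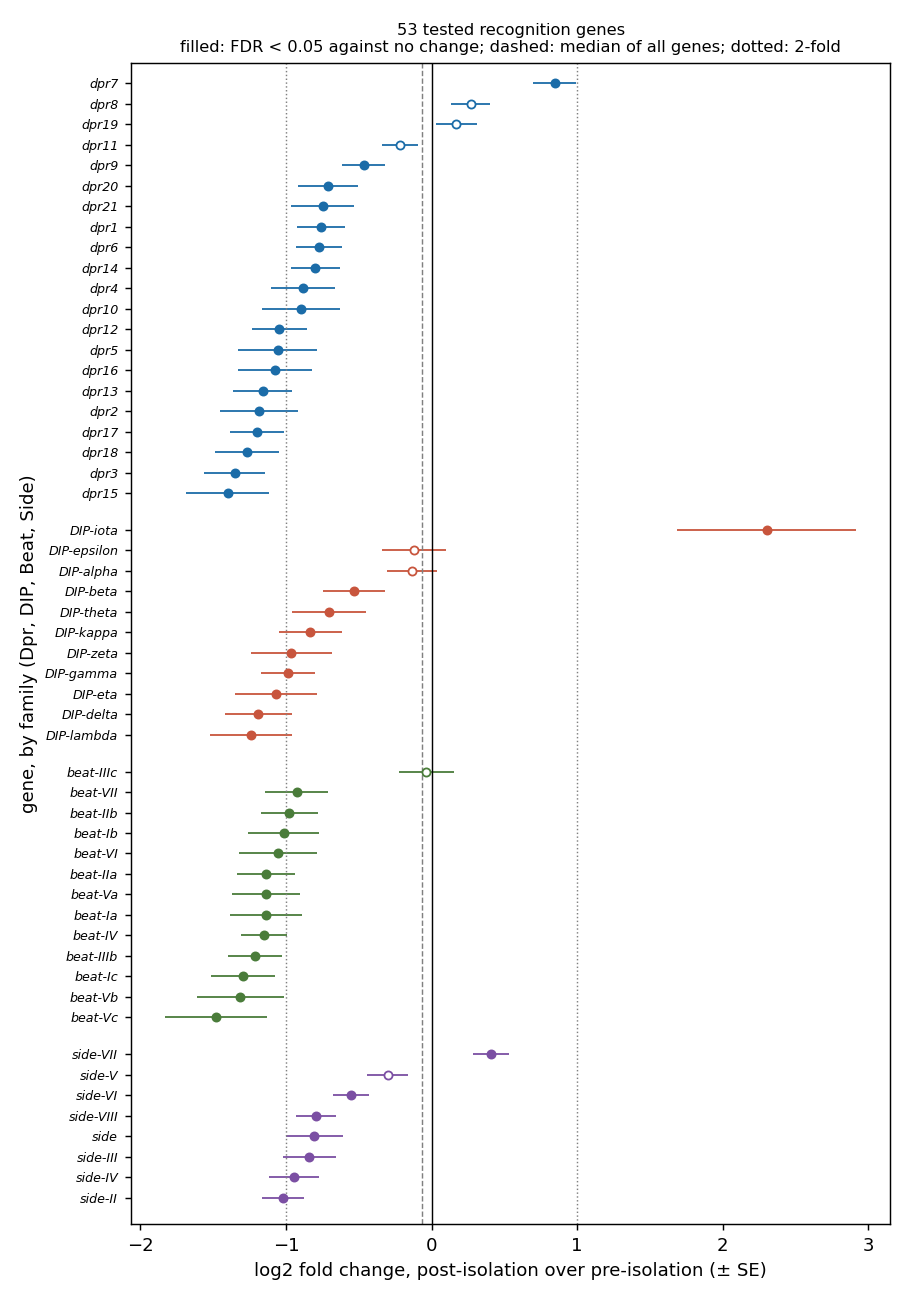
Log2 fold change of post-isolation over pre-isolation for each of the 53 tested members, by family, with the standard error of the quasi-likelihood fit as the bar. Filled points passed the test against no change at an FDR below 0.05, open points did not. Most points of each family lie between -1.5 and -0.5, with *DIP-iota*, *dpr7* and *side-VII* filled to the right of 0.

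By family, the Beat genes lay lowest. The summed Beat level went from 548 ± 25.4 to 271 ± 83.5 CPM, 49.4% of the pre-isolation mean, and 12 of 13 tested Beat genes were lower by the test against no change, with a median log2 fold change of -1.14. Among 11 DIP genes 8 were lower and 1 higher (median -0.83, summed level from 226 ± 9.64 to 143 ± 18.8 CPM). Among 21 Dpr genes 17 were lower and 1 higher (median -0.88, from 1212 ± 44.9 to 841 ± 115 CPM). Among 8 Side genes 6 were lower and 1 higher (median -0.80, from 917 ± 36.6 to 632 ± 119 CPM). The differences between families were not tested. In every family the 3 post-isolation sums lay below the 3 pre-isolation sums, and replicate 3 gave the highest post-isolation sum.

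**Figure D2:**
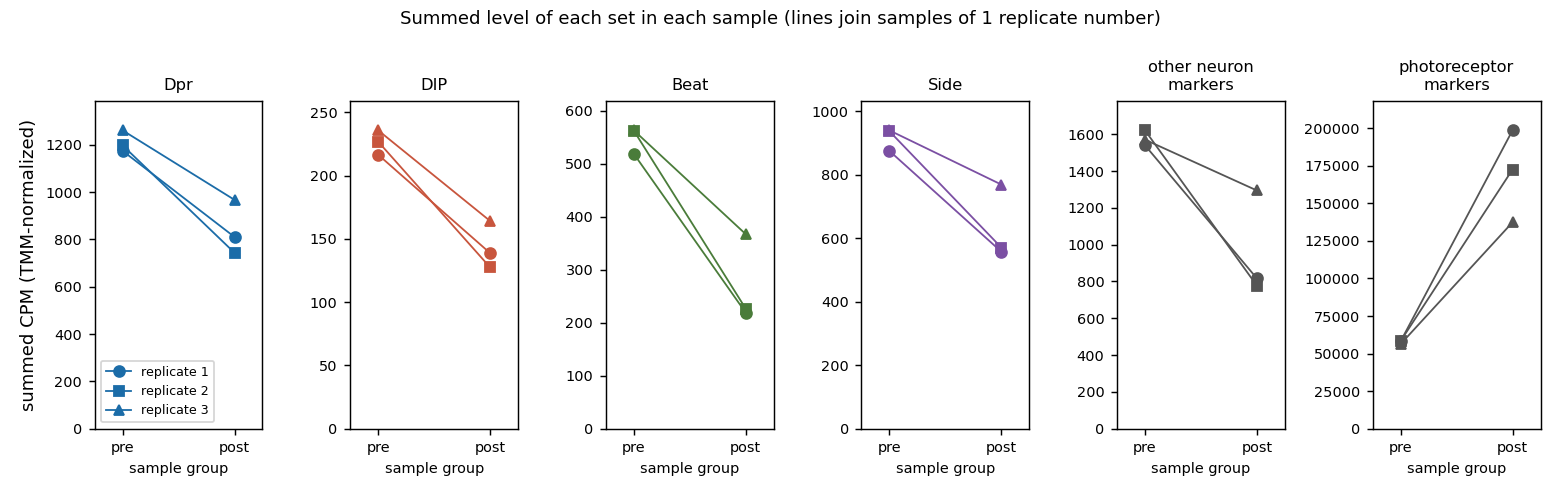
Summed TMM-normalized CPM of the 4 families, of markers of other neurons and of photoreceptor markers in each sample, with lines joining the pre- and post-isolation samples of 1 replicate number. All family sums go down, photoreceptor markers go up, and the triangle of replicate 3 lies closest to the pre-isolation level in every panel.

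The Dpr genes ranged from a log2 fold change of 0.85 for *dpr7* to -1.40 for *dpr15*. *dpr7*, the only member on chromosome 4 (BDGP6, 247124 to 253329, minus strand), had 745, 535 and 524 counts pre-isolation and 1121, 923 and 858 counts post-isolation, or 57.1, 42.4 and 44.7 CPM against 96.4, 84.8 and 78.3 CPM. The 2 groups did not overlap. The log2 fold change was 0.85 (SE 0.15, adjusted p = 0.000265 by edgeR's quasi-likelihood F test with Benjamini-Hochberg adjustment), a mean level 180% of that before isolation. *dpr7* stayed above 0 under each scaling and without each sample in turn, with log2 fold changes between 0.76 and 0.98 over the samples left out and 0.40 with library size alone.

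*dpr8* and *dpr19* did not pass the test in either direction. *dpr8* (chromosome X, 14322226 to 14462351, plus strand) measured 100, 99.2 and 130 CPM pre-isolation and 144, 128 and 125 CPM post-isolation, so the groups overlapped through pre-isolation replicate 3, and the log2 fold change of 0.27 (SE 0.14) did not pass the test (adjusted p = 0.116, edgeR). *dpr19* measured 45.2, 43.4 and 43.3 CPM against 47.5, 45.3 and 55.8 CPM. Its groups did not overlap, but the log2 fold change of 0.17 (SE 0.14) did not pass the test (adjusted p = 0.344, edgeR). Both were below 0 with library size alone (-0.18 and -0.27), where the median of all genes was -0.51.

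*dpr11* and *dpr9* lay between these and the rest. *dpr11*, known as the Dpr of the yellow subtype of R7 photoreceptors, measured 97.7, 106 and 111 CPM pre-isolation and 98.2, 86.9 and 85.6 CPM post-isolation. The groups overlapped and the log2 fold change was -0.22 (SE 0.12, adjusted p = 0.165, edgeR). The rhodopsin genes of R7 and R8 cells, *Rh3*, *Rh4*, *Rh5* and *Rh6*, were post-enriched, with log2 fold changes of 2.53, 1.81, 2.05 and 2.05. The study ascribes the enrichment of such rhodopsin genes to driver activity in antennal neurons. Whether R7 nuclei were among those captured was not tested. *dpr9* went from 122 ± 12.9 to 88.0 ± 17.0 CPM, lower by the test against no change (log2 fold change -0.47, SE 0.15, adjusted p = 0.0172, edgeR), a call that was lost in 3 of the 6 fits that left out 1 sample.

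At the other end, *dpr15* and *dpr3* were lowest among the Dpr genes. *dpr15* went from 23.6, 27.2 and 28.4 CPM to 7.22, 6.34 and 16.5 CPM (log2 fold change -1.40, SE 0.29, adjusted p = 0.00085 by edgeR's F test), with replicate 3 well above the other post-isolation samples. Without that sample the log2 fold change was -1.90. *dpr3* went from 42.1, 57.4 and 49.3 CPM to 14.6, 17.5 and 26.2 CPM (-1.35, SE 0.21, adjusted p = 7.52e-05 by the same test). Neither gene's groups overlapped.

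*dpr12*, with the highest CPM of all members before isolation, was about halved. It had 2620, 2441 and 2293 counts pre-isolation and 862, 833 and 1485 counts post-isolation, or 201, 194 and 196 CPM against 74.1, 76.5 and 136 CPM. The log2 fold change was -1.05 (SE 0.19, adjusted p = 0.000285, edgeR's F test), and -1.33 without post-isolation replicate 3.

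The remaining 13 Dpr genes were all lower by the test against no change, with no overlap between the groups. The largest changes among them were those of *dpr18* (42.5 ± 4.27 to 17.7 ± 6.51 CPM, log2 fold change -1.27), *dpr17* (37.7 ± 3.72 to 16.4 ± 2.71 CPM, -1.20), *dpr2* (15.0 ± 1.55 to 6.60 ± 1.67 CPM, -1.19) and *dpr13* (50.6 ± 5.11 to 22.7 ± 7.50 CPM, -1.16). The smallest was that of *dpr20* (32.3 ± 7.09 to 19.7 ± 2.52 CPM, -0.71). *dpr6* and *dpr10*, neighbours on 3L that lie 8094 bp apart and share a DIP partner, had log2 fold changes of -0.77 (SE 0.16) and -0.90 (SE 0.26). *dpr1*, the founding gene, went from 48.5 ± 2.14 to 28.6 ± 5.36 CPM (-0.76, SE 0.17). The calls of *dpr10* and *dpr20* were lost in 3 and 1 of the 6 fits that left out a sample.

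Among the DIP genes, *DIP-iota* was the exception, at a very low level. It had 3, 7 and 15 counts pre-isolation and 47, 33 and 32 counts post-isolation, or 0.230, 0.555 and 1.28 CPM against 4.04, 3.03 and 2.92 CPM. The groups did not overlap, and the log2 fold change was 2.30 (SE 0.61, adjusted p = 0.00561 against no change and 0.0674 against 2-fold, edgeR). It was above the CPM minimum in all 3 post-isolation samples but in only 1 pre-isolation sample, so it entered the test through the group where it is high. Left out in turn, single samples moved its log2 fold change between 1.87 and 3.06.

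*DIP-alpha* and *DIP-epsilon* did not pass either test. *DIP-alpha* measured 32.3, 28.0 and 30.6 CPM pre-isolation and 30.3, 29.9 and 22.6 CPM post-isolation, with overlapping groups (log2 fold change -0.13, SE 0.17, adjusted p = 0.551 by edgeR's F test). Its post-isolation replicate 3 was the lowest of all 6 samples, unlike most members, and without it the log2 fold change was 0.04. *DIP-epsilon* measured 15.9, 21.8 and 21.4 CPM against 15.5, 15.9 and 23.0 CPM (-0.12, SE 0.22). Exons of *DIP-alpha* overlap those of *CG2875* by 158 bp on the same strand, a stretch whose reads could not be assigned to either gene.

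The other 8 DIP genes were lower by the test against no change. *DIP-gamma* went from 36.7, 37.7 and 36.5 CPM to 13.9, 20.4 and 21.8 CPM (log2 fold change -0.99, SE 0.19, adjusted p = 0.000481, edgeR), with tight pre-isolation samples and no overlap. *DIP-lambda* (12.5 ± 1.02 to 5.29 ± 1.04 CPM, -1.24) and *DIP-delta* (23.3 ± 2.13 to 10.2 ± 2.69 CPM, -1.19) were lowest. *DIP-eta* (-1.07), *DIP-zeta* (-0.96), *DIP-kappa* (-0.83) and *DIP-theta* (-0.70) lay between. *DIP-beta* was least sure, from 27.1 ± 3.29 to 18.7 ± 5.14 CPM (-0.53, SE 0.21, adjusted p = 0.0479, edgeR), and its call was lost with RLE factors, with DESeq2 and in 5 of the 6 fits that left out a sample. *DIP-theta* lost its call in 4 of those fits and *DIP-zeta* in 1.

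The Beat genes moved as a block with a single exception. *beat-Vc* had the lowest log2 fold change of all members, -1.48 (SE 0.35, adjusted p = 0.0025, edgeR's F test), from 9.65, 9.68 and 10.5 CPM to 3.52, 1.93 and 5.20 CPM. *beat-Vb* (15.6 ± 1.89 to 6.27 ± 2.68 CPM, -1.31) and *beat-Va* (19.9 ± 0.995 to 9.06 ± 2.14 CPM, -1.14), of the same gene cluster on 3R, were lower too. *beat-Ia*, the receptor of motor axons for Side, went from 22.2 ± 5.34 to 10.1 ± 1.97 CPM (-1.14, SE 0.25), and its neighbours *beat-Ib* and *beat-Ic* on 2L had log2 fold changes of -1.01 and -1.30.

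*beat-IIIc* (2L, 17187637 to 17260734, minus strand) was the tested Beat gene that did not pass. It measured 30.6, 25.0 and 21.6 CPM pre-isolation and 24.4, 28.7 and 22.4 CPM post-isolation, with overlapping groups and a log2 fold change of -0.04 (SE 0.19, adjusted p = 0.894, edgeR). *beat-IIIb*, on the same arm and with no overlap of its groups, went from 48.6, 55.3 and 53.9 CPM to 18.7, 19.4 and 30.0 CPM (-1.21, SE 0.19, adjusted p = 7.27e-05, edgeR). Within each sample the ratio of *beat-IIIc* to *beat-IIIb* was 0.629, 0.452 and 0.401 before and 1.30, 1.48 and 0.745 after isolation, all 3 post-isolation ratios above the pre-isolation ones. The pair was chosen after its values were seen, so this is a description with no test. The third gene of this group, *beat-IIIa*, had 0 counts in all 6 samples and was not tested. All 4457 bp of its exons overlap *CG34106* on the same strand, which was also at 0. Reads in that overlap would not have been assigned to either gene, so the 0 sets no limit on its level.

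Among the Beat genes, replicate 3 stood apart in *beat-VI* and *beat-VII*. *beat-VI* measured 57.1, 66.2 and 58.6 CPM before and 18.0, 21.2 and 48.7 CPM after isolation, and *beat-VII* 103, 117 and 118 CPM before and 42.7, 45.4 and 90.0 CPM after. In both genes replicate 3 was well above the other post-isolation samples and still below the pre-isolation range. Their log2 fold changes were -1.05 (SE 0.27) and -0.93 (SE 0.22), and -1.58 and -1.30 without that sample. *beat-IV* (55.3 ± 4.30 to 24.9 ± 3.72 CPM, -1.15), *beat-IIa* (68.4 ± 7.90 to 31.1 ± 10.7 CPM, -1.14) and *beat-IIb* (41.7 ± 2.10 to 21.2 ± 6.60 CPM, -0.98) were also lower.

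**Figure D3:**
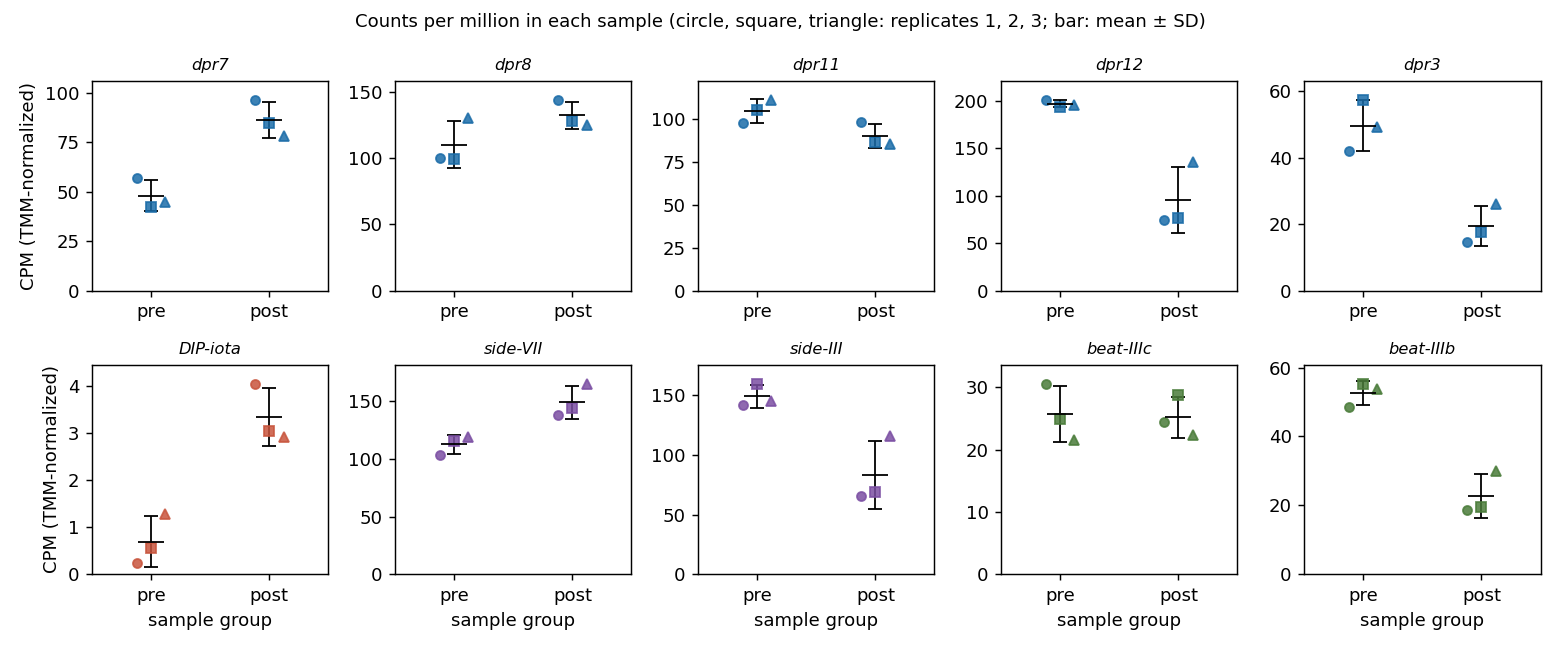
TMM-normalized CPM of 10 members in each sample, with the mean ± SD of each group. Each vertical axis starts at 0 and has its own range. *dpr7*, *DIP-iota* and *side-VII* lie higher in all 3 post-isolation samples, *dpr12*, *dpr3*, *side-III* and *beat-IIIb* lie lower, and *dpr8*, *dpr11* and *beat-IIIc* overlap.

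Among the Side genes, *side-VII* (3R, 9734012 to 9739979, minus strand) was higher in the isolated nuclei. It measured 103, 115 and 119 CPM pre-isolation and 138, 144 and 165 CPM post-isolation, with no overlap and a log2 fold change of 0.41 (SE 0.12, adjusted p = 0.013, edgeR's F test). The call was lost without pre-isolation replicate 1, and with library size alone the log2 fold change was -0.03, against a median of -0.51 for all genes. *side-VII* made up 12.3 ± 0.440% of the Side counts before and 23.8 ± 2.05% after isolation. *side-V* had a log2 fold change of -0.30 (SE 0.14), from 91.9 ± 9.08 to 74.6 ± 11.0 CPM, and did not pass the test (adjusted p = 0.0897, edgeR).

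The founding gene *side*, the guidance cue of motor axons, measured 116, 117 and 119 CPM before and 54.2, 50.3 and 97.2 CPM after isolation. It was lower without overlap (log2 fold change -0.80, SE 0.20, adjusted p = 0.00322, edgeR). *side-III* went from 142, 160 and 145 CPM to 65.2, 68.7 and 116 CPM (-0.84, SE 0.18). The ratio of *side-VII* to *side-III* within a sample, another pair chosen after its values were seen, was 0.728, 0.721 and 0.820 before and 2.12, 2.09 and 1.42 after isolation.

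*side-II* had the lowest log2 fold change of the family, -1.02 (SE 0.14, adjusted p = 3.14e-05, edgeR), from 78.5, 86.4 and 96.3 CPM to 38.1, 42.7 and 47.8 CPM, with no post-isolation sample standing apart. *side-IV* (117 ± 6.17 to 60.7 ± 17.8 CPM, -0.94), *side-VIII* (106 ± 1.59 to 61.5 ± 9.97 CPM, -0.79) and *side-VI* (136 ± 11.7 to 93.0 ± 7.69 CPM, -0.55) were lower as well. Over 3457 bp the exons of *side-IV* overlap antisense transcripts, which the strand-specific counting keeps apart from it.

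Levels can be set between genes only per length of exon. Per kb, the median member had 11.97 CPM before and 6.71 CPM after isolation, while the median of 10169 genes with a length was 9.51 and 8.93 CPM. Before isolation the order was led by *dpr12* (41.8 CPM per kb), *dpr7* (31.7), *side-VII* (25.4), *dpr9* (25.2) and *side-IV* (22.8). After isolation it was led by *dpr7* (57.1 CPM per kb), *side-VII* (33.7), *dpr8* (26.7), *dpr12* (20.3) and *dpr11* (19.4). Among all genes, *dpr7* stood at the 83.3 percentile before and the 90.6 percentile after isolation, *side-VII* at 78.6 and 82.9, and *dpr12* at 87.8 and 72.5. Some neighbours in these orders differed by less than the SD of either gene over samples, namely *side-VII* and *dpr9* before isolation and *dpr12* and *dpr11* after. *dpr9* and *side-IV* before isolation, and *dpr8* and *dpr12* after, differed by less than the larger of their SDs only. Of the 4 families the DIP genes had the lowest median, 5.08 CPM per kb before and 3.07 after, and a highest post-isolation value of 6.03 for *DIP-gamma*. The lowest tested member after isolation was *beat-Vc* (1.58 CPM per kb).

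**Figure D4:**
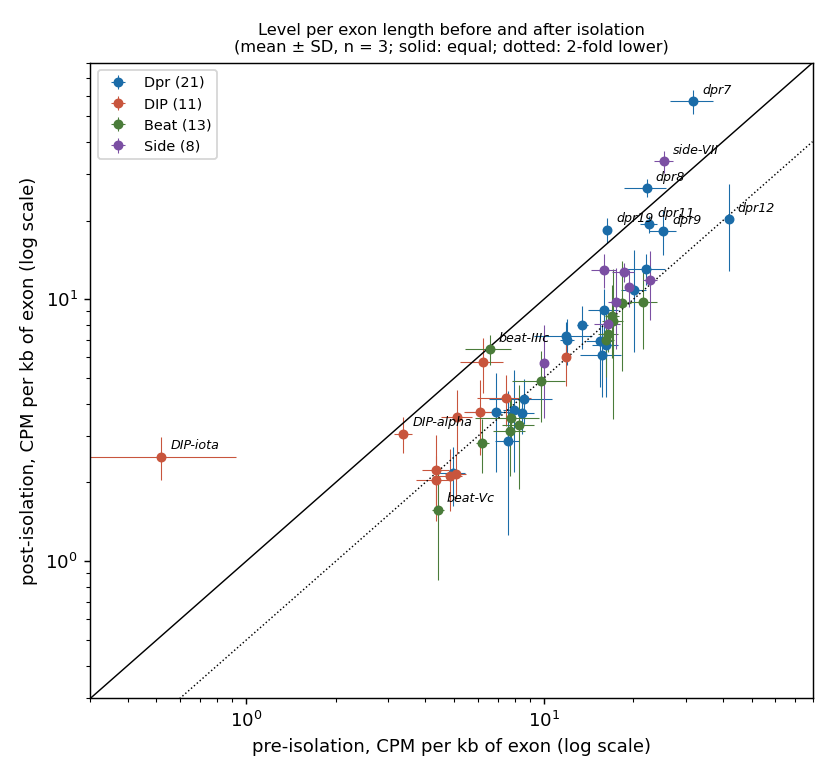
CPM per kb of exon before (horizontal) and after isolation (vertical) for the 53 tested members, both on log scales, as mean ± SD with n = 3. The solid line marks equal levels and the dotted line a 2-fold lower level. Most members lie near the dotted line, *dpr8*, *dpr19*, *side-VII*, *dpr7* and *DIP-iota* lie above the solid line, and *dpr7* and *side-VII* have the highest post-isolation levels.

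Shares within a family and ratios between members are given as a description, for genes picked after their values were seen. Of the Dpr counts, *dpr12* held 16.3 ± 0.789% before and 11.1 ± 2.54% after isolation, *dpr8* 9.05 ± 1.12% and 16.0 ± 2.61%, and *dpr7* 3.98 ± 0.759% and 10.5 ± 2.07%. The ratio of *dpr7* to *dpr12* was 0.284, 0.219 and 0.229 before and 1.30, 1.11 and 0.578 after isolation, and that of *dpr8* to *dpr12* 0.5, 0.512 and 0.666 before and 1.94, 1.67 and 0.925 after. In both ratios all post-isolation samples were above all pre-isolation samples, and replicate 3 was closest to the pre-isolation values.

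Known partners did not share 1 pattern, and no difference between partners was tested. *DIP-gamma* and the Dprs known to bind it are a pair of the medulla, where *dpr11* marks yellow R7 cells and *DIP-gamma* a set of their Dm8 target neurons. *DIP-gamma* (-0.99), *dpr15* (-1.40), *dpr16* (-1.08) and *dpr17* (-1.20) were lower, while *dpr11* (-0.22) did not pass the test. The ratio of *dpr11* to *DIP-gamma* was 2.66, 2.80 and 3.05 before and 7.05, 4.26 and 3.92 after isolation, a pair chosen after its values were seen. *DIP-alpha* (-0.13) did not pass the test, while its partners *dpr6* and *dpr10* were lower.

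For *DIP-delta* and its partner *dpr12*, known as a pair that guides wiring of the mushroom body, the log2 fold changes were -1.19 and -1.05. Of the Dprs that bind *DIP-zeta* or *DIP-epsilon*, *dpr13* (-1.16), *dpr14* (-0.80), *dpr18* (-1.27) and *dpr20* (-0.71) were lower and *dpr19* (0.17) did not pass the test. *DIP-zeta* itself was lower (-0.96) and *DIP-epsilon* (-0.12) did not pass. The group *dpr1* to *dpr5*, which includes partners of *DIP-eta*, *DIP-theta* and *DIP-iota*, was lower throughout, from -0.76 for *dpr1* to -1.35 for *dpr3*. *DIP-eta* (-1.07) and *DIP-theta* (-0.70) were lower too, while *DIP-iota* (2.30), which could not have been called lower, was higher. In 3 known Beat and Side pairs both members were lower. These were *side* (-0.80) with *beat-Ia* (-1.14), *side-IV* (-0.94) with *beat-IIb* (-0.98), and *side-II* (-1.02) with *beat-VI* (-1.05). The same held for *side* with *beat-Ib* (-1.01), and for *side-VI* (-0.55) with *beat-Va* (-1.14), *beat-Vb* (-1.31) and *beat-Vc* (-1.48). Of all members tested 81.1% were lower.

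Correlations of gene length and of level with the changes were at most 0.37 in size. Across the 53 tested members, which are not independent replicates and share the same 6 libraries, the log2 fold change had a Pearson correlation of -0.24 with the log2 length of the gene span, -0.12 with that of the exons and 0.11 with the log2 level per kb. Spearman correlations were 0.07, 0.24 and 0.37. The level per kb was the mean of both groups, so it shares values with the fold change it is set against. Of 10 members with a span under 10000 bp, 4 had a fold change above 0 (*dpr7*, *dpr19*, *DIP-iota* and *side-VII*), and of 43 longer members 1 did (*dpr8*). *DIP-iota* entered the test only through its post-isolation samples, so its place above 0 followed from the filter. It is also among the 53 members of the correlations. The medians of these classes were -0.75 and -0.98. The split at 10000 bp was chosen with the values known.

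Other cell surface genes of neuronal recognition, a list of 60 genes of which 58 were in the table and tested, were spread to both sides. By the test against no change 23 were higher (39.7%, against 24.4% of all genes), 21 lower (36.2%, against 26.1%) and 14 neither, with a median log2 fold change of 0.08. By the 2-fold criterion 4 were post-enriched (6.90%, against 7.29% of all genes). They were *nrm* (neuromusculin, 201 ± 5.94 to 1676 ± 425 CPM, log2 fold change 3.06, SE 0.17, adjusted p = 1.97e-07), the N-cadherin gene *CadN* (445 ± 32.7 to 1693 ± 341 CPM, 1.93, SE 0.15), *kirre* (33.4 ± 4.02 to 119 ± 17.1 CPM, 1.84, SE 0.15) and *rst* (38.3 ± 2.51 to 122 ± 28.2 CPM, 1.67, SE 0.17), by edgeR's glmTreat with Benjamini-Hochberg adjustment. *kirre* and *rst*, the latter named roughest, encode paralogous adhesion proteins of the eye. *cDIP*, a secreted protein that binds Dpr and DIP proteins, had a log2 fold change of 0.10 (SE 0.18) and passed neither test. Whether the recognition families differ from this list was not tested.

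**Figure D5:**
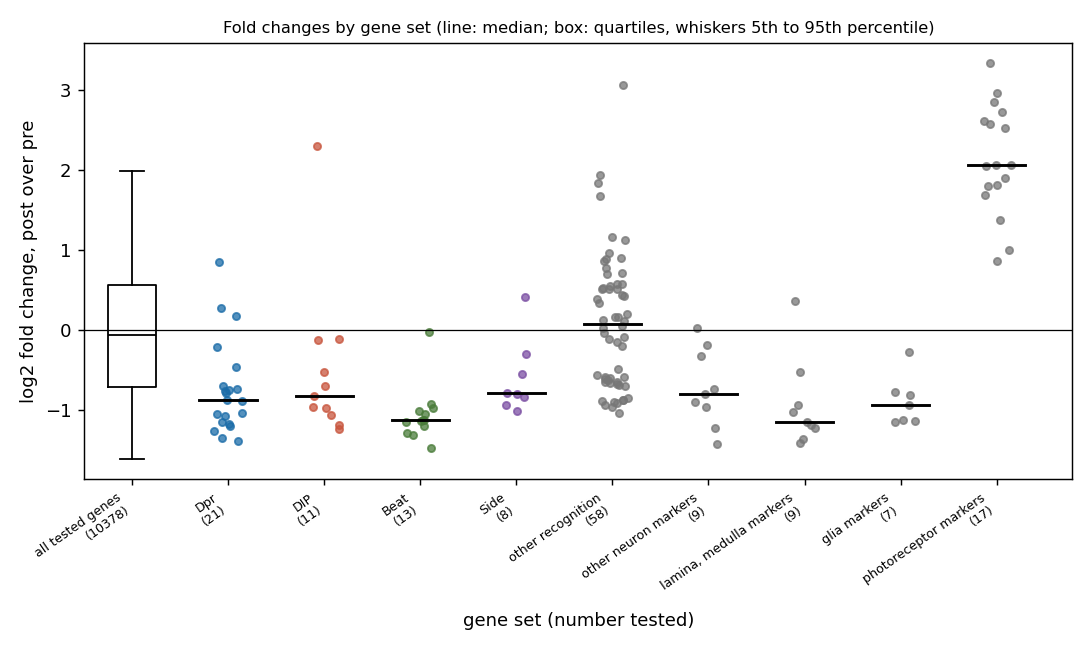
Log2 fold change of post-isolation over pre-isolation for all 10378 tested genes (box with quartiles, whiskers from the 5th to the 95th percentile) and for single genes of the 4 families, the other recognition genes and 4 marker lists, with a line at each median. The medians of the 4 families lie near those of other neuron and glia markers and below that of the other recognition genes, whose range overlaps theirs. Photoreceptor markers lie above 0 throughout.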

How the data were processed

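RNA-seq counts of 3 pre-isolation and 3 post-isolation samples were analysed. The deposited counts are whole reads per gene without normalization, made by the authors with HTSeq by strand from reads that had been trimmed (Trimmomatic) and aligned to BDGP6 (TopHat, Bowtie 2). Multiply mapped alignments, 85.96% to 91.7% of all, were not counted. The authors' filtered count table served as an alternative, and their CPM table was not used. Symbols, positions and exon lengths came from an Ensembl BDGP6 annotation more recent than the authors', which held 98.3% of the genes and all 54 members.

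The 10378 genes that exceeded a CPM of 1 in 3 or more samples were tested with edgeR 4.0.16 in R 4.3.3: TMM factors (0.802 to 1.17), glmQLFit, then glmTreat against a fold of 2, or glmQLFTest against no change, with Benjamini-Hochberg adjustment over all genes at an FDR of 0.05. Standard errors were derived from the F statistic. DESeq2 1.42.0, RLE factors, library size alone, no CPM filter, the filtered table, a replicate block and leaving out each sample were alternatives, and the legacy quasi-likelihood fit was added after the data were seen. Simulated counts were used to test the procedure. Python 3.11.15 and matplotlib 3.10.9 drew the figures.

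The labels call the replicates paired, so replicate numbers pair the samples. Deviations of same-numbered samples from their group means correlated at 0.0155, 0.0525 and -0.000986, and the block is given in the closing section since it changed no member's call. The members and lists were chosen with earlier results of these data known. Members named are those with the 2 highest and 2 lowest fold changes and levels per kb of exon in each family, those of known partner pairs, and any called by glmTreat, with other members by range. Some marker symbols (5) and 2 genes of the recognition list had no match and were not analysed here.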

Additional observations from a re-analysis of the deposited data

How the results depend on the processing

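Members called past 2-fold by edgeR's glmTreat numbered 0 higher and 0 lower. Under alternatives the higher count was 3 with glmQLFTest against no change and 0 to 1 when 1 sample was left out (1 without pre-isolation replicate 3, 1 without post-isolation replicate 3). The lower count was 17 with library size alone, 43 with glmQLFTest and 0 to 10 when 1 sample was left out (10 without post-isolation replicate 3). Over all genes, 757 higher became 451 with library size alone, 480 in the authors' filtered table, 2535 with glmQLFTest and 555 to 942 with 1 sample left out, and 508 lower became 1253, 278 with DESeq2, 2707 and 345 to 725. Among other recognition genes, glmQLFTest gave 23 higher and 21 lower, and 0 to 1 were lower by glmTreat with 1 sample left out (1 without post-isolation replicate 3).

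By the test against no change, 43 members lower became 38 to 44 with 1 sample left out, 47 with library size alone, 42 with RLE factors or DESeq2 and 34 of 42 in the filtered table, and 3 higher became 2 to 4. Over all genes, library size alone gave 4326 lower and 1394 higher. The share of all genes lower was 26.1% in the main fit, 41.7% with library size alone and 36.4% in the filtered table. It was 24.2% with RLE factors, 23.7% with DESeq2 and 21.7% to 27.7% with 1 sample left out. With the replicate number as a block, the same 43 and 3 members were called against no change and 0 past 2-fold, the median of the members was -0.98, and the block changed no other call of a member. A few members near 0 changed sign: *dpr19* (-0.27), *dpr8* (-0.18) and *side-VII* (-0.032) with library size alone, and *beat-IIIc* with RLE factors (0.020) and DESeq2 (0.024). With 1 sample left out, *DIP-alpha* lay between -0.20 and 0.042 (the latter without post-isolation replicate 3), and *beat-IIIc* between -0.15 and 0.11 (above 0 without pre-isolation replicate 1 or post-isolation replicate 3). The cause was not tested. Depth limits *DIP-iota*, with 3 to 15 counts pre-isolation.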
